A study of Mus musculus with 6 samples.

Results

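The genes described here encode the WAVE complex and its relative WASP, which start branched actin filaments. They were named by symbol as Nckap1, Nckap1l, Wasf1, Wasf2, Was, Cyfip1, Cyfip2, Abi1 and Abi3, and every probe set that the platform annotation gives to exactly 1 of these symbols was used. Of the 9 genes 8 had a probe set, 16 probe sets in all, out of 18193 genes and 45037 probe sets on the array. Cyfip1 is not analysed here. The group was assembled because the Nckap1 signal was higher in the knockout arrays of this same comparison, so the values of that gene are a description without a test, and no count over the group is support for a change.

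WAVE is a complex of 5 kinds of subunit. A WAVE protein carries the segment that binds and switches on Arp2/3, and the CYFIP, NCKAP1, ABI and BRK1 subunits hold that segment inactive until the GTPase Rac binds CYFIP. WASP, encoded by Was, drives the same Arp2/3 complex outside WAVE, under the GTPase Cdc42. Most tissues use Nckap1, while blood cells use its paralog Nckap1l (Hem1), whose product is needed for migration and adhesion of leukocytes.

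The samples were HSPCs, blood stem and progenitor cells sorted from mouse bone marrow as lineage-negative cells carrying c-Kit and Sca1. The background strain was B6/129, and cells were taken 4 days after injection of pI:pC, a double-stranded RNA mimic that triggers interferon. Knockout cells came from Med12Flox;MxCre mice, in which the interferon-driven Mx promoter switches on Cre and a floxed Med12 gene is deleted. Control cells came from mice labelled control, at the same time after the same injection, and their genotype, the presence of Cre in them and the ages of the mice are not given in the sources used here. Each group had 3 arrays, HSPC_control and HSPC_Med12 KO, hybridised with RNA amplified from 5 ng of total RNA. The labels do not say that the arrays of a group came from separate animals, so the p-values speak only of the spread between these arrays, which may be technical. Med12 encodes a subunit of the Mediator kinase module.

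Facts of the whole array set bear on the values as follows. Med12 signals were 278.6, 837.4 and 441.6 in controls and 89.1, 100.4 and 86.4 in knockouts (log2 difference -2.17, SE 0.38; limma adjusted p = 0.0796), read by 1 probe set that may or may not lie in the deleted part of the gene. Control arrays had median signals of 26.7 to 26.9, and knockout arrays of 16.5 to 21.3. Of the sort markers, Kit ranged over 805.2 to 1425.4 in controls and over 514.8 to 617.5 in knockouts, and its dimmer probe set fell (log2 difference -1.27; limma adjusted p = 0.0479). The progenitor marker Cd34 was at -1.43 (limma adjusted p = 0.132), with all knockout arrays below the controls. The T and B cell genes Cd3e and Ms4a1 stayed at or below 19.7 on every array, and the myeloid gene Itgam lay between 14.2 and 114.6 with overlapping groups. Markers of other blood lineages differed between the groups. Their lists were chosen with earlier results of these data known, so counts over them are a description and no support for a change. For scale, 0.989% of all 18193 genes passed limma's adjusted threshold of 0.05, 64 higher and 116 lower in knockouts. Of 14 measured erythroid markers 8 rose and 0 fell, led by the unadjusted p of Rhag, Add2 and Blvrb. Their list had a summed signal of 3677 to 4491 on control arrays against 9194 to 14477 on knockout arrays. The globin gene Hba-a1 stayed between 0.6 and 2.5, under every array's median, so a change in it was hardly measurable. Slc4a1, the red cell anion exchanger on the erythroid list, was lower in knockouts without passing (log2 difference -1.60; limma adjusted p = 0.260). Its signals were 23.2, 185.8 and 69.3 in controls and 11.8, 13.9 and 13.2 in knockouts. Of 10 granulocyte-monocyte markers 7 fell (summed signal 8843 to 16367 against 782 to 1681), led by Elane, Irf8 and Ly86, and of 8 early lymphoid markers 6 fell (3391 to 4264 against 117 to 235), led by Dntt, Lax1 and Rag2. Itga2b rose among 8 megakaryocyte markers (3570 to 5064 against 5813 to 7634), and Cma1 rose among 7 mast cell and basophil markers (1390 to 1789 against 2309 to 2690). On that last list 6 estimates were higher and 1 lower. The lower one was Mcpt8, at 176.5, 212.7 and 207.8 in controls and 20.7, 181.3 and 24.7 in knockouts. Its groups overlapped and it did not pass (log2 difference -1.69; limma adjusted p = 0.298). None of 11 stromal and endothelial markers passed (1607 to 1993 against 980 to 1385), and the collagen gene Col3a1 stayed at or below 3.7. In that list 5 were higher and 6 lower, or 7 and 4 after median centring, and Plvap (1.59; limma adjusted p = 0.218) and Col1a2 (0.87; limma adjusted p = 0.190) had all knockout arrays above the controls. These marker calls needed all 6 arrays: without any 1 array limma called 0 of the erythroid, megakaryocyte, mast cell and stromal markers and 0 to 1 each of the granulocyte-monocyte and lymphoid ones, although 12 to 13 of the 14 erythroid markers stayed higher and all 10 granulocyte-monocyte and 8 lymphoid markers stayed lower. With all 6 arrays the calls also depended on the fit, and a term for replicate number left 0 in every list. With 1 in place of 16 added before log2, 1 of 14 erythroid, 2 of 10 granulocyte-monocyte and 3 of 8 lymphoid markers passed. Without the dimmest 25% of probe sets, 9 of 13, 10 of 10 and 7 of 8 passed in those lists. The part of these cell type differences in the values below was not tested. In sorted bulk cells, a different mix of cells and a different amount of RNA per cell cannot be told apart.

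Nckap1, the subunit that bridges CYFIP and the rest of WAVE in most tissues, was about 4-fold brighter in the knockouts. Its probe set, 1452196_a_at, gave signals of 71.9, 56.6 and 65.6 in controls, against 281.6, 248.7 and 279.5 in knockouts. Every knockout array lay above every control array, and the arrays within a group lay close together. The means were 64.7 ± 7.69 and 270 ± 18.4 (SD, n = 3 each), a ratio of 4.17, and the difference on the log2(signal + 16) scale was 1.83 (SE 0.13). Differences on that scale understate the change of dim probe sets. Of 18193 genes, each taken by its brightest probe set, 68 had a larger difference towards the knockouts. Only this probe set carries the symbol Nckap1 in the annotation, so no second reading of the gene was used here.

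The blood paralog Nckap1l had slightly lower estimates in the knockouts by both probe sets, without passing the test, and after median centring they were 0.04 and -0.05. Its brighter probe set, 1428786_at, gave 705.3, 942.0 and 846.0 in controls and 700.1, 675.5 and 729.6 in knockouts. The groups overlapped through the lowest control array. The means were 831 ± 119 and 702 ± 27.1 (SD, n = 3 each), with a log2 difference of -0.23 (SE 0.15; 95% interval -0.59 to 0.13; limma adjusted p = 0.520). The second probe set, 1428787_at, gave 296.7, 484.6 and 512.0 in controls and 305.3, 411.5 and 290.7 in knockouts. It pointed the same way, with overlapping groups and a log2 difference of -0.32 (SE 0.25; 95% interval -0.95 to 0.30; limma adjusted p = 0.614). Neither interval reached a difference of the size seen for Nckap1. The Nckap1 difference exceeded that of Nckap1l by 2.06 on the log2 scale against the brighter probe set and by 2.15 against the other, as a description. Signals of different probe sets are not comparable as levels, so these data do not say which paralog had more RNA.

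**Figure D1:**
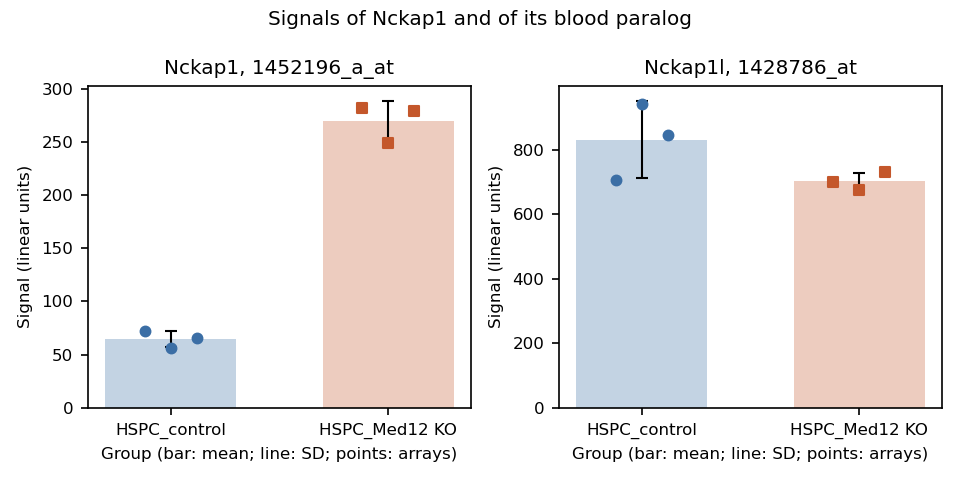
Probe set signal in linear units for Nckap1 (left) and Nckap1l (right, probe set 1428786_at) in HSPC_control and HSPC_Med12 KO; bars are means, lines SD and points the 3 arrays of each group. Nckap1 sits between 56.6 and 71.9 in controls and between 248.7 and 281.6 in knockouts, while the Nckap1l groups overlap; the vertical scales differ and are not comparable between panels.

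Among the proteins that activate Arp2/3, Was was the other member whose knockout arrays all lay above the controls. Was encodes WASP, the blood-restricted activator lost in Wiskott-Aldrich syndrome. Its signals were 475.9, 408.3 and 386.0 in controls and 542.6, 702.0 and 665.8 in knockouts. The 2 groups did not overlap, and the means were 423 ± 46.8 and 637 ± 83.6 (SD, n = 3 each). The log2 difference of 0.57 (SE 0.16; 95% interval 0.19 to 0.95) did not pass limma's test after adjustment over all probe sets (adjusted p = 0.172).

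Wasf2 encodes WAVE2, the WAVE protein of most tissues including blood. Its brighter probe set, 1454673_at, gave 1086.8, 961.4 and 1192.8 in controls and 1127.9, 941.5 and 923.5 in knockouts. These overlapped, with a log2 difference of -0.11 (SE 0.15; 95% interval -0.48 to 0.25; limma adjusted p = 0.781). The dimmer probe set, 1438683_at, gave 125.5, 132.7 and 157.4 in controls and 85.2, 199.6 and 149.6 in knockouts. Of the knockout signals, 85.2 lay below all controls, 199.6 above them and 149.6 within their range (log2 difference -0.0047, SE 0.29; limma adjusted p = 0.997). Wasf1 encodes WAVE1, best known from the brain. Its probe set was dim on all 6 arrays, at 26.7, 6.0 and 10.8 in controls and 15.8, 7.7 and 6.5 in knockouts, and the groups overlapped (log2 difference -0.19, SE 0.29; limma adjusted p = 0.817). With 5 of these 6 signals under the 16 added before taking logs, a change in Wasf1 was hardly measurable here.

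The sequences before the start sites of Was and Wasf2 are shown. Was was the activator with separate groups, and Wasf2, like Wasf1, had overlapping groups. Each holds the 250 bases before the gene's start from RefSeq, build GRCm38.p6, read 5′ to 3′ along the gene, at chrX:8090492-8090741 on the minus strand for Was and chr4:133130383-133130632 on the plus strand for Wasf2. Capitals mark matches, on either strand, to 4 motifs. CGGAAG is a form of the motif bound by many ETS factors, and AGATAA is a form of the motif of blood GATA factors. GGGCGG is the GC box, and CCAAT is the box bound by factor NF-Y.
Was: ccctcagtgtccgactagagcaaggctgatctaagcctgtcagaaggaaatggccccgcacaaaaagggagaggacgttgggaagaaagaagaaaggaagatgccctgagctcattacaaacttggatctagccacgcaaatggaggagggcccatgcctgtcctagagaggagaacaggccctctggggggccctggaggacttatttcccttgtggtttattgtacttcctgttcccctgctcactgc
Wasf2: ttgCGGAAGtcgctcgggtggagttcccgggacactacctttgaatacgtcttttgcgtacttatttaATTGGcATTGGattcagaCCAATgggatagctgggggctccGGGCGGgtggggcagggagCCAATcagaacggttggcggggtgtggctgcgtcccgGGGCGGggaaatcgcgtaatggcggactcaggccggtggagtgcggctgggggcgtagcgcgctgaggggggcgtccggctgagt
The Wasf2 window held 1 CGGAAG, 2 GGGCGG and 4 CCAAT matches and 0 of AGATAA, and the Was window held 0 of each. Of 32851 promoter windows of that length, 13.6% held CGGAAG, 32.7% GGGCGG, 33.9% CCAAT and 9.99% AGATAA. The marked matches do not overlap one another, and a match is a run of letters, not a shown binding site. Other forms of the ETS and GATA motifs were not searched, so 0 matches does not mean that a window lacks such a site. The GC content was 53.6% for Was and 63.2% for Wasf2. RefSeq windows were found for 5 of the 9 genes: Wasf1, Wasf2, Was, Cyfip2 and Abi1. Of those not printed, Wasf1 held 1 GGGCGG and 1 CCAAT, the Abi1 windows 1 CCAAT each, and Cyfip2 0 of each motif.

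Cyfip2, the Rac-binding subunit measured here, had lower mean signals in the knockouts by all 3 of its probe sets. The probe set 1449273_at gave 598.5, 465.2 and 501.5 in controls and 441.8, 327.7 and 321.1 in knockouts. All knockout values lay below all control values, with means of 522 ± 68.9 and 364 ± 67.9 (SD, n = 3 each). The log2 difference of -0.51 (SE 0.18; 95% interval -0.95 to -0.071) did not pass (limma adjusted p = 0.255). The probe set 1428347_at gave 607.0, 396.6 and 442.0 in controls and 422.4, 349.5 and 319.7 in knockouts, which overlapped (log2 difference -0.38, SE 0.20; limma adjusted p = 0.444). The third, 1442167_at, was erratic in controls, at 70.7, 188.2 and 21.4, against 27.4, 24.9 and 58.8 in knockouts (log2 difference -0.77, SE 0.63; limma adjusted p = 0.630).

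The ABI adaptors tie the complex to kinases and to the membrane. Abi1, the widely expressed one, was read by 4 probe sets that did not share a sign. The brightest, 1450890_a_at, gave 457.1, 523.2 and 348.5 in controls and 421.0, 375.3 and 449.2 in knockouts (log2 difference -0.075, SE 0.18; 95% interval -0.52 to 0.37; limma adjusted p = 0.899). The groups overlapped there and on the next pair, 1423177_a_at (log2 difference -0.097; limma adjusted p = 0.910) and 1438506_s_at (0.080; limma adjusted p = 0.899). The dim probe set 1423178_at stood apart from these, at 27.9, 61.2 and 38.2 in controls and 102.6, 52.1 and 106.6 in knockouts. Knockout replicate 2 lay inside the control range, and the log2 difference of 0.81 (SE 0.32; 95% interval 0.036 to 1.58) did not pass (limma adjusted p = 0.300).

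Abi3 encodes the ABI relative NESH, found in blood cells among other tissues. Its brighter probe set, 1452928_at, gave 65.4, 140.5 and 101.3 in controls and 95.5, 47.1 and 54.4 in knockouts. The groups overlapped, with means of 102 ± 37.6 and 65.7 ± 26.1 (SD, n = 3 each) and a log2 difference of -0.53 (SE 0.32; 95% interval -1.32 to 0.26; limma adjusted p = 0.499). The other, 1446191_at, lay between 1.9 and 43.5 over all 6 arrays and showed no common direction (log2 difference -0.067, SE 0.54; limma adjusted p = 0.974).

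**Figure D2:**
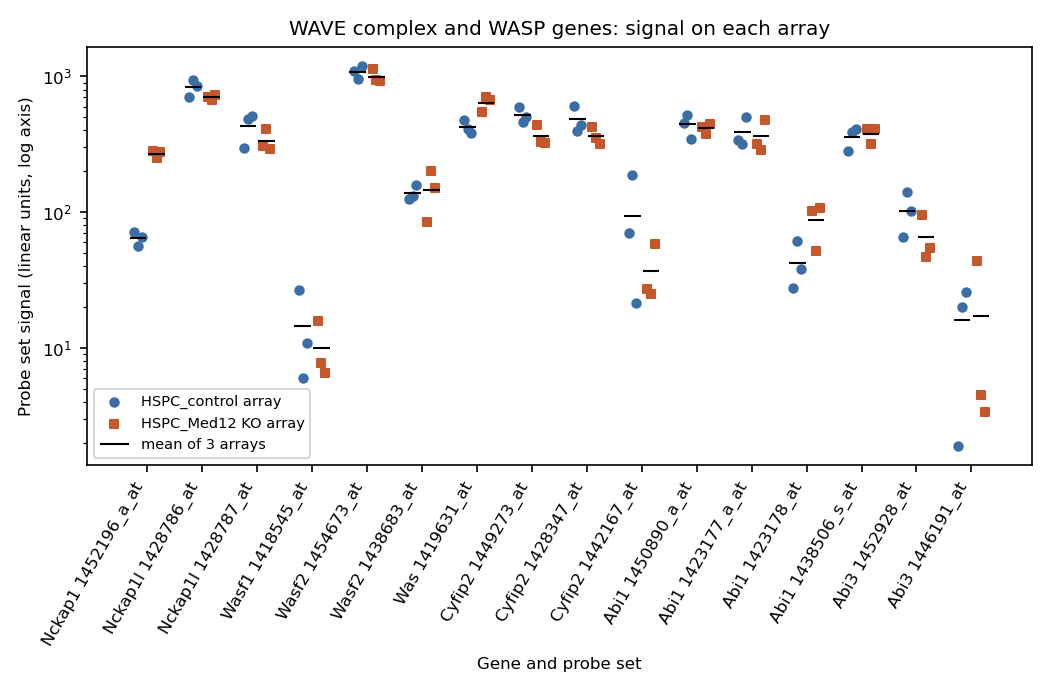
Signal of each of the 16 member probe sets on a log axis; circles are the 3 HSPC_control arrays, squares the 3 HSPC_Med12 KO arrays and lines the group means. The groups are separate for Nckap1, Was and the Cyfip2 probe set 1449273_at and overlap for the other 13; heights of different probe sets are not comparable as RNA levels.

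Over the members, 1 of 16 probe sets lay past limma's adjusted threshold of 0.05, beside 0.762% of probe sets on the whole array. That probe set is the one of Nckap1, for which the group was chosen, so the count is no test of it and nothing is read from it. It lay past the threshold in 7 of 15 alternative settings and not in the other 8, which include leaving out any 1 array. None of the remaining 15 passed, and 3 had an unadjusted p under 0.05, beside 15.7% of all probe sets. By 1 probe set per gene the count was 1 of 8, again Nckap1, beside 0.989% of all genes. Signals did not overlap between groups for 3 of the 16 probe sets (Nckap1, Was and 1 of Cyfip2), against 20.9% of all probe sets, and for 3 of the 8 genes, against 23.4% of all genes. The median log2 difference over the 16 probe sets was -0.11, and over all probe sets -0.07. The split of 4 higher and 12 lower probe sets turned to 11 higher and 5 lower when each array was centred on its median, which moved the median over all genes from -0.05 to 0.22. Nckap1 and Was stayed higher, and Cyfip2 lower by all 3 probe sets, with every scaling tried.

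**Figure D3:**
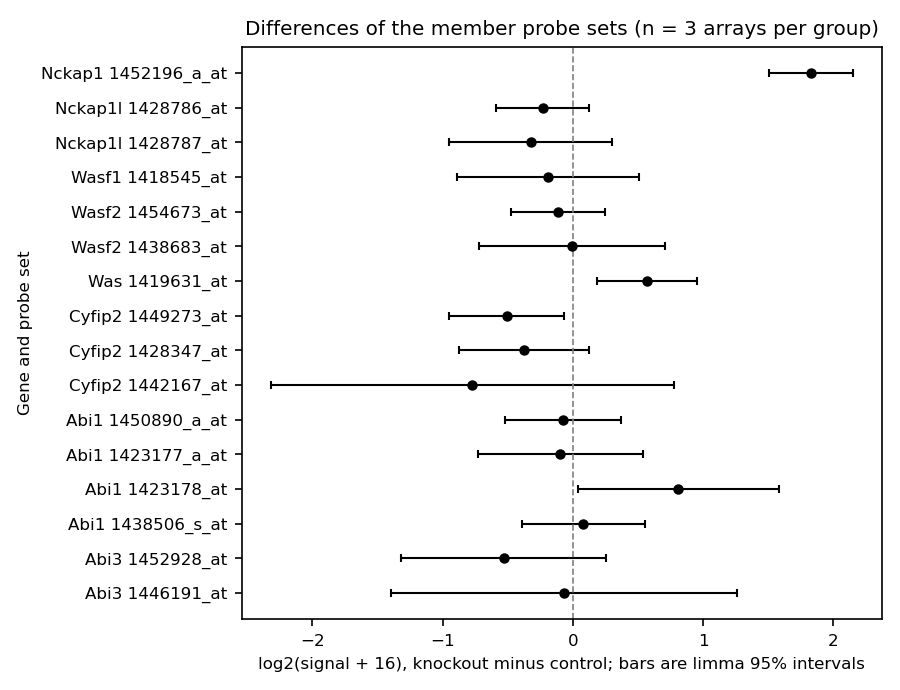
Difference in log2(signal + 16), knockout minus control, for each member probe set with its 95% interval from limma (n = 3 arrays per group). Nckap1 lies at 1.83; the intervals of Was, of Abi1 1423178_at and of Cyfip2 1449273_at leave out 0 before adjustment, and the other 12 include it.

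The genes whose pattern over the 6 arrays was nearest to that of Nckap1 were picked by the root mean square difference between log2 values, each centred on the gene's own mean. The nearest was Fam241a, at 155.8, 116.1 and 136.4 in controls and 709.7, 510.4 and 593.3 in knockouts (root mean square difference 0.14). Next came the deubiquitinase gene Usp24 (0.18), with means of 232 ± 39.0 and 723 ± 54.6 (SD, n = 3 each). Add2, the beta-adducin of the red cell membrane skeleton, followed at 0.19, with means of 31.2 ± 4.57 and 127 ± 24.8. Rapgef3, a cAMP-activated exchange factor for Rap GTPases, was also at 0.19, with means of 271 ± 6.26 and 809 ± 96.0. Blvrb, a biliverdin reductase of red cells, was at 0.20, with means of 230 ± 39.3 and 849 ± 149. All 5 were higher on every knockout array than on any control array, as their choice required, and Add2 and Blvrb are on the erythroid marker list.

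**Figure D4:**
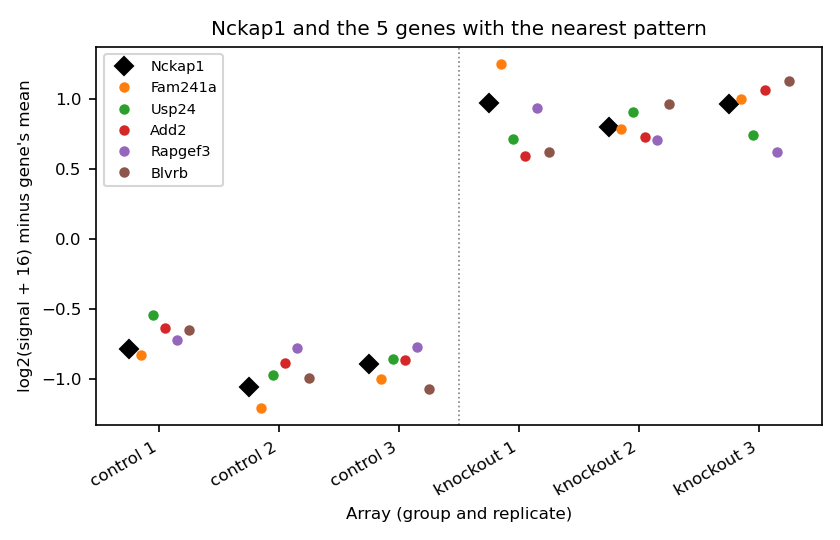
log2(signal + 16) minus each gene's own mean on the 6 arrays for Nckap1 (black diamonds) and the 5 genes nearest to it. All 6 genes lie below their mean on the 3 control arrays and above it on the 3 knockout arrays; replicate numbers carry no order.

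The rest of the actin nucleation machinery was followed in 7 lists of genes outside the group. Of 75 listed genes 69 were measured, and limma called 0 of them at the adjusted threshold, while 16 had an unadjusted p under 0.05, beside 18.1% of all genes. Higher log2 signal in knockouts was found for 31 and lower for 38, with a median of -0.02 beside -0.05 over all genes. After median centring the split was 53 higher and 16 lower, with a median of 0.25 beside 0.22 over all genes. Groups did not overlap for 22 of the 69, 11 in each direction, beside 23.4% of all genes.

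Of the other WAVE subunits, all 3 had lower estimates, or 2 after median centring, and 0 passed. Brk1, the small subunit of the complex, had a log2 difference of -0.0025 (SE 0.12; limma adjusted p = 0.995), from signals of 2300.0, 2045.9 and 2402.4 to 2202.1, 2212.0 and 2308.6. Abi2 was at -0.36 with overlapping groups by its brightest probe set (limma adjusted p = 0.486). Its other probe sets were at -0.75 with separate groups (limma adjusted p = 0.236) and, dim, at -0.53 with overlapping groups. Wasf3, encoding WAVE3, was dim, at 13.5 to 27.2 in controls and 6.5 to 9.4 in knockouts (limma adjusted p = 0.202).

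Among 11 WASP relatives and partners 0 passed, and Wasl, the widely expressed N-WASP, was at 0.06 (SE 0.18). The adaptor gene Pstpip1, whose product binds WASP, had signals of 266.5, 466.7 and 240.8 in controls and 125.9, 114.6 and 53.6 in knockouts (log2 difference -1.59, SE 0.37; limma adjusted p = 0.128). Fnbp1, a membrane-bending WASP partner, was at -0.78 by its brightest probe set (limma adjusted p = 0.149), and at -0.24 and -0.25 with overlapping groups by the other 2.

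Of 10 Arp2/3 subunit genes 6 were measured, and 5 had higher and 1 lower estimates, or 6 higher after median centring. Arpc5 was at 0.24 and Arpc4 at 0.26 (limma adjusted p = 0.441 and 0.517). The list median was 0.18, and none of the 6 passed.

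Upstream of both activators, the GTPases Rac1 (-0.08, SE 0.12), Rac2 (0.19, SE 0.19) and Cdc42 (-0.05, SE 0.14) had estimates smaller than or about the size of their errors. Elmo1, which with DOCK proteins activates Rac, had signals of 883.0, 830.4 and 747.6 in controls and 491.4, 489.3 and 364.1 in knockouts (log2 difference -0.86, SE 0.16; limma adjusted p = 0.0934). Its other probe sets overlapped between groups, at -0.29 and -1.17. The exchange factor gene Vav3 was at -1.15 (SE 0.28; limma adjusted p = 0.136), with -1.03 and -1.22 by the other 2 probe sets. None of these 15 upstream genes passed.

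Other activators and nucleators differed in both directions without a call. Cttn, the cortactin gene, whose product steadies branches, had signals of 447.4, 804.8 and 319.0 in controls and 1405.8, 1083.4 and 1759.9 in knockouts (log2 difference 1.48, SE 0.37; limma adjusted p = 0.142), but 3 of its 5 probe sets lay near 0, at -0.05, -0.18 and 0.10. The WASH subunit gene Washc4 was at -0.94 (limma adjusted p = 0.117). Of 12 formin and other nucleator genes 6 had an unadjusted p under 0.05, beside the same 18.1%, and 0 passed, with Diaph2 at -0.94 (limma adjusted p = 0.158) and Diaph3 at 0.92 (limma adjusted p = 0.221).

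Of 13 genes that restrain or recycle branched filaments 0 passed. Coro1c, a coronin, was at 0.68 by its brightest probe set (limma adjusted p = 0.117). Its other probe sets were at 0.31 with overlapping groups, at 0.78 with separate groups and, with signals at or below 1.7, at -0.04. The capping protein gene Capza1 was at 0.40 (limma adjusted p = 0.269). Coro7, a coronin of the Golgi, was at -0.60 by its brightest probe set (limma adjusted p = 0.275), and its 6 probe sets, all lower with separate groups, ran from -1.44 to -0.60. Averaged over its probe sets it passed limma's test (log2 difference -0.94; adjusted p = 0.0186), which makes it the 1 gene of the 69 called under that setting.

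**Figure D5:**
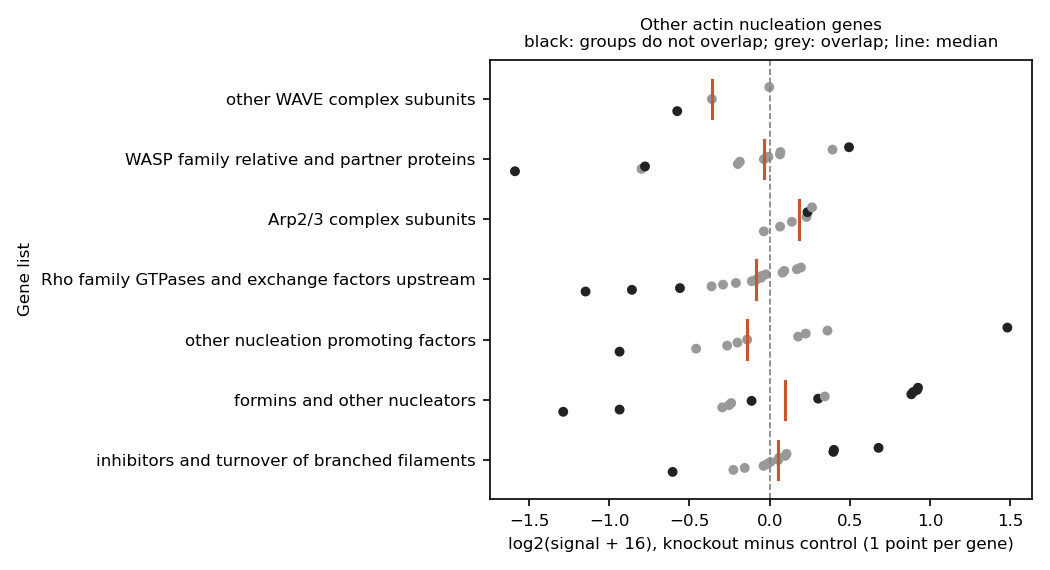
Difference in log2(signal + 16), knockout minus control, for the 69 measured genes of 7 actin nucleation lists, 1 point per gene; black points have separate groups, grey points overlap, and lines are list medians. No gene passed limma's adjusted threshold, and Arp2/3 subunits lie close together around a median of 0.18.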

How the data were processed

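The authors deposited 1 signal intensity per probe set and array, on a linear scale. Per the submitters' processing notes RMA was used, with no version given. The deposited values are linear, include zeros and share a mean of 150 on every array after leaving out 2% at each end, so the method that made them is not known here. No value column was left out (0 of 6). After leaving out 64 control probe sets, 45037 were analysed as log2(signal + 16). Genes were named from the platform annotation of the array, which gave 34945 probe sets 1 symbol, 932 several and 9160 none, and 1 probe set of highest mean log2 stood for each gene. Of 154 list entries 140 were measured.

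Groups were compared with lmFit and eBayes in limma 3.58.1 (R 4.3.3; two-sided, 4 residual and 1.96 prior degrees of freedom, Benjamini-Hochberg over all probe sets, threshold 0.05), after the steps were tested on simulated data. "Rose", "fell" and "passed" refer to that threshold. The members and lists were chosen with earlier results of these data known, and the promoter motifs and the 2 promoters printed were chosen after the values were seen. Named genes were all members, up to 2 genes per actin list and up to 3 per marker list by unadjusted p, and the 5 nearest to Nckap1. Others (Brk1, Wasl, Rac1, Rac2, Cdc42, Coro7, Hba-a1, Slc4a1, Mcpt8, Col3a1 and the sort markers) were named outside that rule. Alternatives covered the offset, filters on dim probe sets, normalization, array weights, the variance prior, a replicate block and leaving out each array. Their effect on the marker calls was added after the data were seen. The number of arrays limits the precision.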

Additional observations from a re-analysis of the deposited data

How the results depend on the processing

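The number of probe sets called on the whole array, 343 as reported, was 42 with 1 added before log2 in place of 16, 715 without the dimmest 25% of probe sets, 756 without the dimmer 50%, 693 after median centring, 0 with a replicate block, where 6752 had an unadjusted p under 0.05 in limma, and 0 to 10 when 1 array was left out. Of the 343 reported, 99 were higher in knockouts, and higher probe sets made up 62.2% of the calls after median centring and 43.0% after quantile normalization. The count of called members, 1 in the reported setting, was 0 with 1 added, 0 with the replicate block and 0 to 0 without any 1 array. The other 15 member probe sets had 0 calls under any setting tried. The labels do not say whether replicate numbers pair the samples. Deviations of same-numbered arrays correlated at 0.019, 0.019 and 0.0019, and those of differently numbered arrays at -0.057 to 0.034. With 3 arrays per group these values cannot decide whether the arrays were paired. Pathway genes called moved from 0 to 1 when a gene's probe sets were averaged (Coro7). The log2 difference of Nckap1 minus that of Nckap1l was 2.28 with 1 added, 1.59 with 64 added, 2.25 after quantile normalization and 1.89 to 2.23 without 1 array. Signs of small differences turned after median centring for Nckap1l 1428786_at (0.044), Wasf1 (0.084), Wasf2 (0.16 and 0.27), Abi1 1450890_a_at (0.20) and 1423177_a_at (0.18) and Abi3 1446191_at (0.21). They also turned after quantile normalization for Wasf2 1438683_at (0.10) and Abi3 1446191_at (0.079), with 64 added for Wasf2 1438683_at (0.0086) and with array weights for Abi3 1446191_at (0.049). Leaving out 1 array at a time gave ranges that crossed 0 for Wasf1 (-0.40 to 0.081), Wasf2 1438683_at (-0.25 to 0.30), Abi1 1450890_a_at (-0.23 to 0.051), 1423177_a_at (-0.30 to 0.099) and 1438506_s_at (-0.081 to 0.19), and Abi3 1446191_at (-0.59 to 0.22). The cause was not tested. Without the dimmer 50% of probe sets, Wasf1 and Abi3 1446191_at gave no value.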
